A study of Mus musculus with 12 samples.

Results

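The 39 interferon-stimulated genes described here are a named set of mouse genes that cells switch on after sensing interferon, followed in cultures of bone marrow cells grown towards osteoclasts, the cells that resorb bone. Members were chosen by gene symbol, with earlier results of these data known. All 39 were found among the 55401 gene identifiers of the culture tables. They were followed in 8 of the 12 RNA sequencing libraries of a study of Impdh2, which encodes an enzyme of guanine nucleotide synthesis. The libraries fall into 4 groups of 2: Wt R0D3, Wt R40D3, LysM-cKO R0D3 and LysM-cKO R40D3. LysM-cKO stands for mice whose Impdh2 was deleted in the myeloid lineage, with LysM naming the driver, and Wt mice kept the gene. Per the labels' protocols, marrow cells of either genotype were first cultured for 3 days in medium holding L929 cell supernatant as a source of the growth factor M-CSF, at the equivalent of 20 ng/ml. The attached macrophages were then reseeded and given RANKL, the cytokine that drives osteoclast formation, at 40 ng/ml. The labels do not spell out R40D3 and R0D3, and all 8 libraries carry the same treatment label, so both are used as names only. The labels do not say whether replicates came from separate mice or cultures, so p-values measure only the spread between these libraries, which may be technical.

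Type I interferons bind a receptor on most cells, and the kinases attached to it activate transcription factors, among them STAT2, that join IRF9 and enter the nucleus. This complex binds the interferon-stimulated response element, a repeat of the bases GAAA, in the promoters of target genes, whose products sense viral nucleic acid, block translation or cut RNA. In bone, RANKL is known to induce interferon-beta in osteoclast precursors, and that interferon restrains osteoclast formation in return.

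The response element is the sequence feature that members are known for, so the promoters of 4 members are shown. They are the 250 bases before the transcription start, from RefSeq with build GRCm38.p6, written 5′ to 3′ on the gene's strand. Capitals mark the letters GAAANNGAAA found on either strand; a repeat on the other strand reads as TTTC, any base, any base, TTTC. Isg15 and Gbp2 are shown because the rule for named genes picked them and their windows hold a match, Ifit3 because it had the largest fold between replicates of Wt R40D3 after Ifi44 among the tested members, and Irf7 because its window holds none. Ifit3 and Irf7 were chosen for this display after their values were seen.
Isg15, GRCm38.p6, strand -, chr4:156200819-156201068: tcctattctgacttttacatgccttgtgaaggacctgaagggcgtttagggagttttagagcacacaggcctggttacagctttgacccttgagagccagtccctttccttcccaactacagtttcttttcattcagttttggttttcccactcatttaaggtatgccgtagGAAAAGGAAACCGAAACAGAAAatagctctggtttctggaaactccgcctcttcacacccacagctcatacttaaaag
Ifit3, GRCm38.p6, strand +, chr19:34583279-34583528: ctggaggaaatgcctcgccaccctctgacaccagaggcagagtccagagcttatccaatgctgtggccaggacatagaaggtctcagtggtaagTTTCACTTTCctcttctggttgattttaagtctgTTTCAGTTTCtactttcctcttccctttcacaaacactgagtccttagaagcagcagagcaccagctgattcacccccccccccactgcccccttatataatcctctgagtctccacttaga
Gbp2, GRCm38.p6, strand +, chr3:142620413-142620662: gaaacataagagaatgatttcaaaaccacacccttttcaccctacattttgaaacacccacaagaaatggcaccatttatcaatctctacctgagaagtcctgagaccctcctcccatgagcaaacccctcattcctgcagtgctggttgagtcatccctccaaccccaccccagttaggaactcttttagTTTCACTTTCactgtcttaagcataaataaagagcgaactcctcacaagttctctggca
Irf7, GRCm38.p6, strand -, chr7:141266425-141266674: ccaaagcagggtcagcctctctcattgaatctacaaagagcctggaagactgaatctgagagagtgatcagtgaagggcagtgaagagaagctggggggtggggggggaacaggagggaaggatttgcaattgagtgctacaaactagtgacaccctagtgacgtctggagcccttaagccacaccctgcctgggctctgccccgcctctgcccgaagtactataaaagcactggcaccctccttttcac
Isg15 carried 3 overlapping matches, with first bases at 78, 72 and 66 bases before the start. Ifit3 carried 2 matches at 156 and 122 bases before it, and Gbp2 carried 1 match at 59 bases before it.

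RefSeq promoters were found for 29 of the 39 members, in 37 windows of 300 bases that run from 250 before to 50 after the start. Of these 29 members, 15 (51.7%) held at least 1 match, against 1079 of 27025 genes (3.99%) over all promoters of the table. The longer form with a C after the second GAAA was held by 12 members (41.4%), against 0.944% of genes. The 24 matches had first bases from 222 before to 32 after the start, with a median of 69 before it, and 17 lay within the 150 bases before it. The form GAAACTGAAA was found at 6 members, Bst2, Gbp3, Ifit1, Ifit3, Oas1a and Stat2, and GAAAGTGAAA at 4 members, Gbp2, Ifi205, Ifit1 and Ifit3. A match is a description of the letters in the window and not a measured site.

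**Figure D1:**
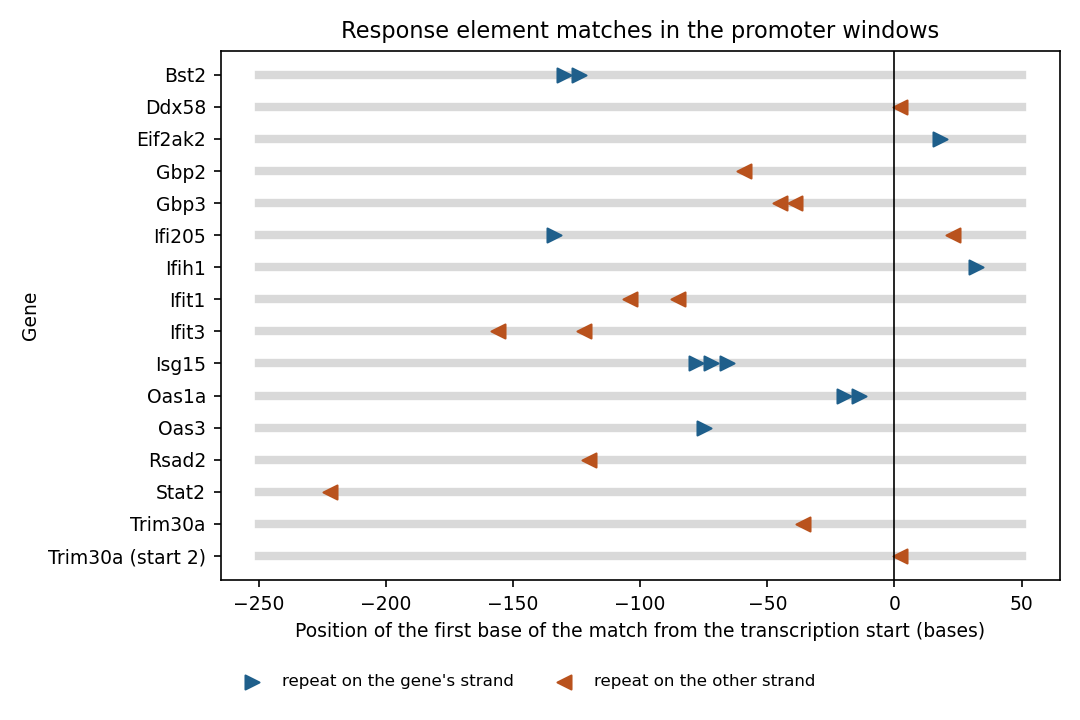
Positions of the response element matches in the promoter windows of the 15 members with a match. Each grey line is a window from 250 bases before to 50 bases after the transcription start, each triangle is the first base of a match, and its direction gives the strand of the repeat; most triangles lie within 150 bases before the start.

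The libraries held 16009146 to 19221865 counts. Impdh2 was at 22.3 to 28.2 CPM (counts scaled to library size) in the 4 Wt libraries and at 7.03 to 8.38 CPM in the 4 LysM-cKO libraries, so its RNA was lower but still present. The osteoclast markers Ctsk, a collagen-cleaving protease, and Acp5, the phosphatase used to stain these cells, stood at 3760 to 11631 CPM and 2854 to 9379 CPM in the R40D3 libraries, against at most 63.0 and 15.8 CPM in the R0D3 libraries. All 10 osteoclast markers were called higher in R40D3 in either genotype. In each of the 4 groups, the spread between the replicates exceeded that of counting alone (chi-square per degree of freedom 8.0 to 21.6). Because these are bulk samples, fewer cells of a type and less RNA per cell cannot be told apart.

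Most members were expressed in every library before any comparison. After a filter on low counts, 38 of the 39 members were tested with edgeR among 14030 genes, and the nucleic acid sensor Ifi205 was left out with 0 to 19 counts per library. Per kilobase of exon, Bst2, the membrane protein tetherin that holds budding virus on the cell, had the highest mean level at 138 RPKM (CPM divided by exonic length in kilobases). Trim30a, a ubiquitin ligase of the TRIM family, followed at 19.3 RPKM and Parp14, an ADP-ribosyltransferase, at 17.6 RPKM. At the other end Mx2, Mx1 and Ifi44 had means of 0.453, 0.564 and 0.0906 RPKM.

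Without a replicate block, no member passed the test in any of the 5 comparisons, the R40D3 contrast in each genotype, the genotype contrast in each condition, and the difference between the genotype contrasts (the interaction). In Wt, 0 of 38 members were called between R40D3 and R0D3 at an adjusted p under 0.05 (edgeR's quasi-likelihood test with Benjamini-Hochberg adjustment), against 16.9% of all genes tested (11.4% higher and 5.52% lower). In LysM-cKO, 0 of 38 were called between R40D3 and R0D3, against 10.1% of all genes (6.99% higher and 3.15% lower). LysM-cKO against Wt gave 0 of 38 at R40D3 and 0 of 38 at R0D3, against 0.0143% of all genes in either case, and the interaction gave 0 members and 0% of all genes. At an unadjusted p under 0.05 the members numbered 1, 4, 0, 0 and 0 of 38 in the same order. Over all 14030 genes tested the counts were 4256, 3364, 1048, 620 and 248. DESeq2 called 0, 1, 0, 0 and 0 members. Between R40D3 and R0D3 it called 16.9% of all genes in Wt and 11.7% in LysM-cKO. The labels do not say that replicate numbers pair the libraries, but same-numbered libraries deviated together, so replicate number was also fitted as a block. With the block the fit called 3 members in Wt, against 28.3% of all genes, 2 in LysM-cKO, against 21.3%, and 0 in the other comparisons. The member medians were -0.11 (Wt R40D3 against R0D3), -0.15 (LysM-cKO R40D3 against R0D3), -0.13 (genotype at R40D3) and -0.01 (genotype at R0D3) on the log2 scale, beside medians over all genes of 0.01, 0.01, -0.01 and 0.01.

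In Wt, 6 members (15.8%) had both R40D3 libraries below both R0D3 libraries, against 29.2% of all genes, and 0 had both above, against 32.8%. In LysM-cKO, 14 members (36.8%) were lower without overlap, against 22.5% of all genes, and 3 (7.89%) were higher, against 27.3%. Between genotypes at R40D3, 1 member was lower without overlap, against 19% of all genes, and 0 were higher, against 19.6%. At R0D3, 4 members were higher, against 17.5%, and 3 were lower, against 14.8%.

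The largest difference between libraries lay within a group, Wt R40D3. All 38 tested members were higher in replicate 1 than in replicate 2 of that group, against 49.7% of all genes, by a median of 0.88 on the log2 scale (1.84-fold) and a range of 0.14 to 2.19. Of them, 28 (73.7%) differed by over 1.5-fold, against 7.44% of all genes tested. The members' sum was 1453 CPM in replicate 1 and 847 CPM in replicate 2 of Wt R40D3, the highest and the lowest of the 8 libraries. Replicate 1 of Wt R40D3 was the highest of the 8 libraries for 24 members (63.2%, against 8.68% of all genes), and replicate 2 was the lowest for 27 members (71.1%, against 20.8%). The log2 values here and within replicate numbers are log2 CPM with a prior count of 2.

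The other groups showed smaller differences between replicates. In Wt R0D3, 26 of 38 members (all genes 51.4%) were higher in replicate 1, with a median log2 difference of 0.13, and 3 (7.89%) passed 1.5-fold, against 6.59% of all genes. In LysM-cKO R0D3, 24 of 38 (all genes 45.8%) were higher in replicate 1 (median 0.09), and 4 (10.5%) passed 1.5-fold, against 10.6%. In LysM-cKO R40D3, 35 of 38 (all genes 48.5%) were higher in replicate 1 (median 0.39), and 9 (23.7%) passed it, against 10.4%. Both R40D3 groups thus had the members higher in replicate 1, by different amounts. That difference between genotypes was not tested.

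**Figure D2:**
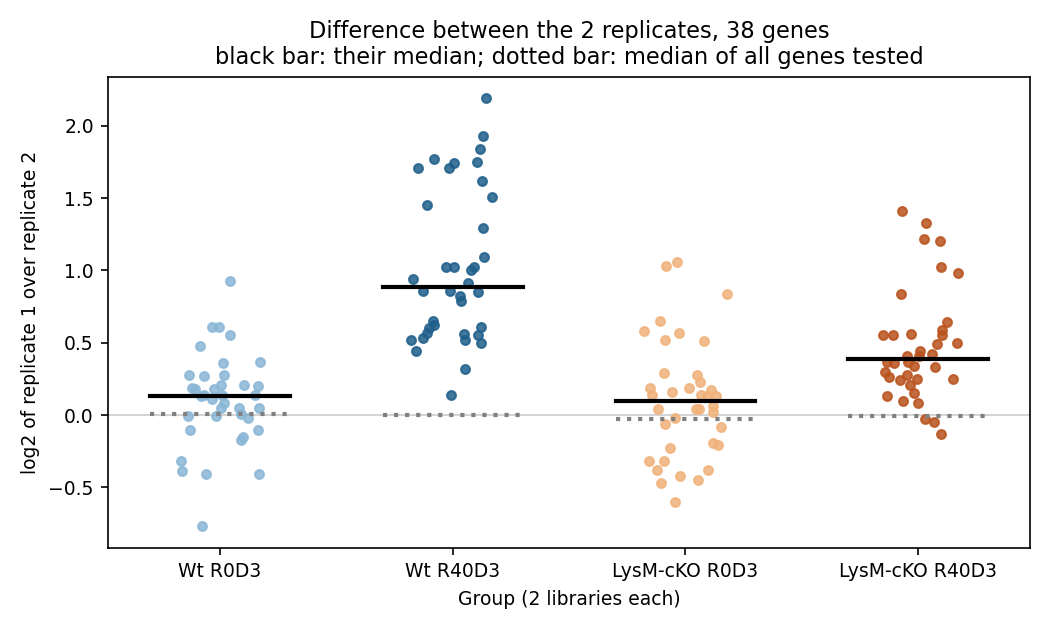
The log2 ratio of replicate 1 to replicate 2 (y axis) in each group of 2 libraries (x axis), 1 point per tested member. Black bars are the members' medians (0.13, 0.88, 0.09 and 0.39 from left to right) and dotted bars the medians of all genes tested; in Wt R40D3 all 38 points lie above 0.

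**Figure D3:**
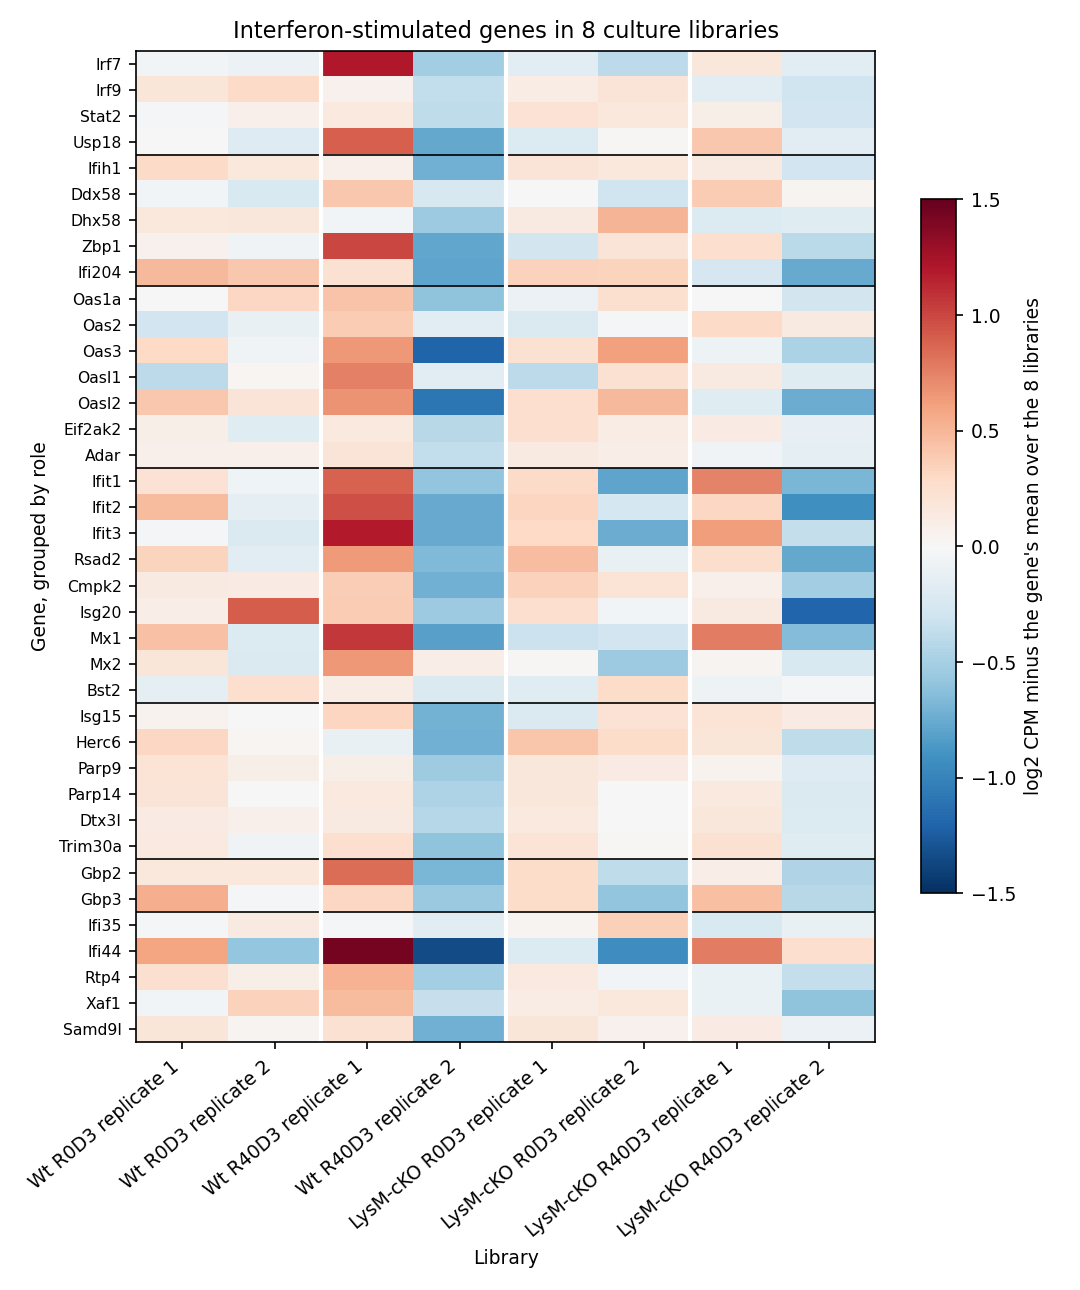
Each row is 1 of the 38 tested members, grouped by role, and each column a library; the colour gives log2 CPM minus the gene's mean over the 8 libraries. The replicate 1 column of Wt R40D3 is red for most rows and the replicate 2 column is blue for most.

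Within replicate numbers, the R40D3 contrast in Wt ran in opposite directions. Within replicate number 1, 29 of 38 members were higher in Wt R40D3 than in Wt R0D3, with a median log2 difference of 0.27. Within replicate number 2, 37 of 38 were lower, with a median of -0.55. In all, 28 members (73.7%) were higher in the first pair and lower in the second, against 12.8% of all genes tested. For LysM-cKO the medians were -0.05 (17 higher, 21 lower) and -0.32 (8 higher, 30 lower), so both medians lay below 0. In that genotype 21 of 38 members were lower in both pairs, against 5006 of the 14030 genes tested.

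The genotype contrast at R40D3 turned over in the opposite sense. In replicate 1, 33 of 38 members were lower in LysM-cKO than in Wt (median -0.24), and in replicate 2, 31 of 38 were higher (median 0.23). The combination of lower in the first pair and higher in the second was held by 26 members (68.4%), against 18.3% of all genes. At R0D3 the pair medians were -0.02 and 0.01, with 17 and 19 of 38 members higher in LysM-cKO. The Wt R40D3 libraries enter both the R40D3 contrast in Wt and the genotype contrast at R40D3, so these are not independent of each other.

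**Figure D4:**
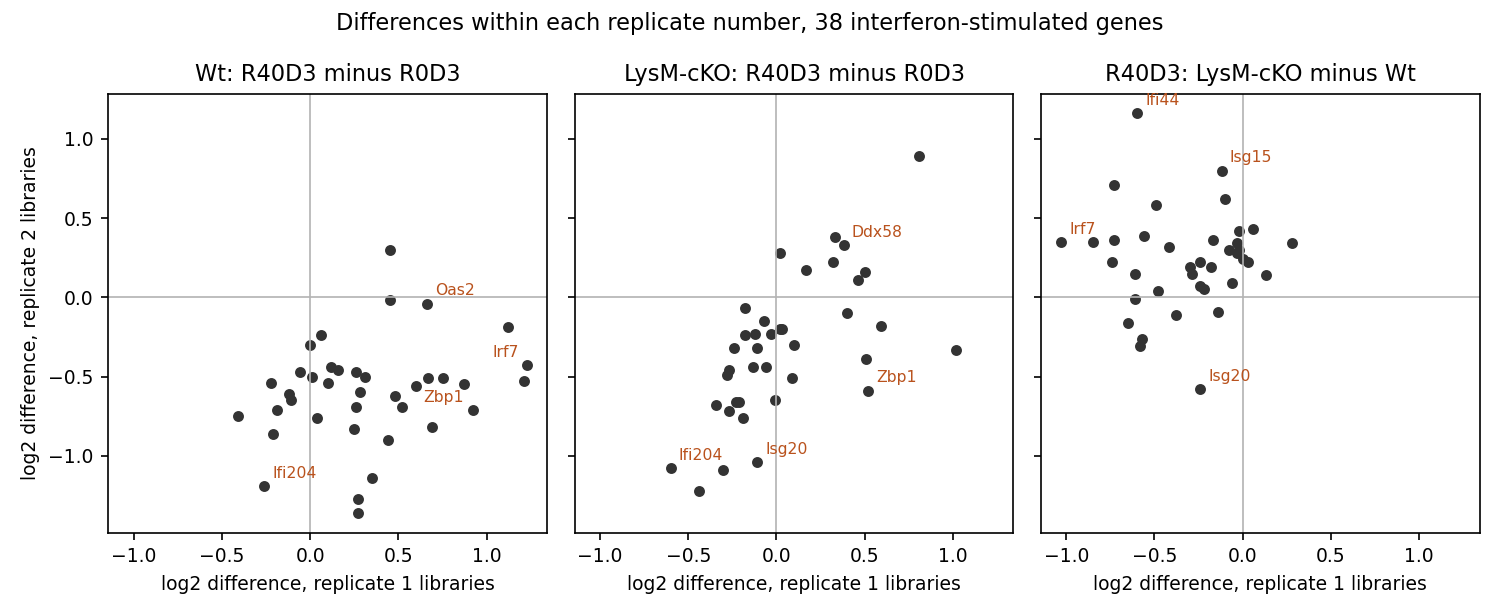
The log2 difference of each tested member within the replicate 1 libraries (x axis) and the replicate 2 libraries (y axis), for 3 contrasts. In Wt most points lie to the right of 0 and below 0 (28 of 38), and for the genotype contrast at R40D3 most lie to the left of 0 and above 0 (26 of 38).

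Gene positions are from GENCODE M21 on GRCm38. Among the signalling factors, Irf7 (ENSMUSG00000025498, chr7:141262706-141266481, strand -), the transcription factor that amplifies interferon production, stood at 51.0 and 15.5 CPM in Wt R40D3 replicates 1 and 2. It stood at 21.6 and 20.9 CPM in Wt R0D3, at 19.9 and 16.9 CPM in LysM-cKO R0D3 and at 24.9 and 19.7 CPM in LysM-cKO R40D3. The Wt R40D3 libraries were thus the highest and the lowest of the 8, and the others stayed within 16.9 to 24.9 CPM. The fitted change from Wt R0D3 to Wt R40D3 was 0.65 on the log2 scale (SE 0.46, adjusted p = 0.398). The pairs gave 1.23 and -0.43. LysM-cKO minus Wt at R40D3 was -1.03 in replicate 1 and 0.35 in replicate 2. Exons of Irf7 overlap those of Phrf1 on the opposite strand, so its reads are uncertain where strand was not used.

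Irf9, the DNA-binding part of the complex with STAT2, had a steadier pattern. It was at 62.0 and 66.6 CPM in Wt R0D3 and at 57.4 and 42.4 CPM in Wt R40D3. In LysM-cKO it was at 59.0 and 62.4 CPM in R0D3 and at 48.7 and 44.5 CPM in R40D3. Both R40D3 libraries lay below both R0D3 libraries in either genotype, without passing the test (log2 -0.36, SE 0.14, adjusted p = 0.134 in Wt and -0.38, SE 0.14, adjusted p = 0.155 in LysM-cKO). Irf9 shares exonic bases with Rnf31 on the same strand, and Usp18, Oasl1, Eif2ak2, Adar, Herc6, Parp14, Gbp2, Ifi35 and Rtp4 each share some with another annotated gene, so reads there are uncertain. Stat2, its partner, stayed between 39.1 and 59.0 CPM over the 8 libraries. Usp18, a protease that removes ISG15 from proteins and dampens the receptor, was at 8.52 and 2.69 CPM in the Wt R40D3 replicates and at 3.97 to 6.03 CPM in the other 6 libraries.

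Of the nucleic acid sensors, Zbp1, which senses Z-form nucleic acid, was at 11.7 and 3.42 CPM in Wt R40D3, against 6.12 and 5.66 CPM in Wt R0D3. In LysM-cKO it was at 4.83 and 6.73 CPM in R0D3 and at 6.98 and 4.44 CPM in R40D3. The Wt R40D3 mean of 7.54 ± 5.83 CPM (SD, n = 2) therefore spanned the values of all other groups. Dhx58, or LGP2, a regulator of the RNA sensors, was at 19.9 and 20.2 CPM in Wt R0D3 and 17.4 and 12.3 CPM in Wt R40D3. In LysM-cKO it was at 19.6 and 25.5 CPM in R0D3 and 15.5 and 15.8 CPM in R40D3. Its R40D3 libraries were lower without overlap in both genotypes, by -0.43 (SE 0.19, adjusted p = 0.183) and -0.52 (SE 0.19, adjusted p = 0.144). Dhx58 overlaps Dhx58os on the opposite strand.

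Ifi204 (ENSMUSG00000073489, chr1:173747293-173766943, strand -), a DNA sensor of the IFI200 family, had the lowest fitted change in either genotype. Its levels were 70.1 and 66.3 CPM in Wt R0D3, 58.7 and 29.0 CPM in Wt R40D3, 63.9 and 63.1 CPM in LysM-cKO R0D3, and 42.0 and 29.8 CPM in LysM-cKO R40D3. All R40D3 values lay below all R0D3 values. The fitted log2 changes were -0.63 in Wt (SE 0.30, adjusted p = 0.201) and -0.82 in LysM-cKO (SE 0.30, adjusted p = 0.146), and DESeq2 called the latter (-0.84, adjusted p = 0.032, where it called 11.7% of all genes). Its family members are similar in sequence, so reads may have been divided between them. Ddx58, or RIG-I, which senses viral RNA, was at 61.7 and 50.6 CPM in LysM-cKO R0D3 and at 80.7 and 63.8 CPM in LysM-cKO R40D3. Those groups did not overlap, while in Wt the values were 60.2 and 53.2 CPM, then 82.5 and 52.6 CPM. Ifih1, or MDA5, another RNA sensor, was at 35.2 and 32.0 CPM in Wt R0D3 and 30.3 and 17.5 CPM in Wt R40D3.

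Of the 4 members called with the block, 3 are sensors. In Wt, 3 members (7.89%) were called lower in R40D3 and 0 higher, against 11.6% of all genes lower and 16.7% higher. They were Ifih1 (-0.51, SE 0.16, adjusted p = 0.0479), Ifi204 (-0.68, SE 0.21, adjusted p = 0.0376) and Herc6 (-0.57, SE 0.15, adjusted p = 0.0207). In LysM-cKO, 1 member was called higher and 1 lower, against 13% and 8.22% of all genes. Ddx58 was higher (0.36, SE 0.11, adjusted p = 0.0471) and Ifi204 lower (-0.85, SE 0.21, adjusted p = 0.0214). The block called 0 members between genotypes in either condition, against 0.214% of all genes at R40D3 and 0.0214% at R0D3.

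The enzymes that bind double-stranded RNA include the OAS family, which makes the messenger that activates RNase L. Oasl2 (ENSMUSG00000029561, chr5:114896936-114912234, strand +), a relative that binds such RNA, was at 53.2 and 15.7 CPM in Wt R40D3 and at 44.0 and 38.1 CPM in Wt R0D3. In LysM-cKO it was at 39.9 and 46.7 CPM in R0D3 and at 29.5 and 20.0 CPM in R40D3. The 2 Wt R40D3 libraries were the highest and the lowest of the 8, and the LysM-cKO groups did not overlap. Its change in LysM-cKO was -0.80 on the log2 scale (SE 0.48, adjusted p = 0.363). Oas3 had the same order in Wt R40D3, at 32.9 and 9.1 CPM. Oas2 differed less, with 14.6 and 16.5 CPM in Wt R0D3, 23.2 and 16.0 CPM in Wt R40D3, 15.4 and 17.6 CPM in LysM-cKO R0D3, and 21.9 and 19.7 CPM in LysM-cKO R40D3. The LysM-cKO R40D3 libraries were above the R0D3 libraries of that genotype (log2 0.33, SE 0.19, adjusted p = 0.343). All 7 genes of this role were higher in Wt R40D3 than in Wt R0D3 in replicate 1 and lower in replicate 2, among them Eif2ak2, the kinase PKR that halts translation, and Adar, which edits adenosine to inosine.

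Of the 7 roles, the antiviral effectors had the largest median difference between replicates in both R40D3 groups. In Wt R40D3 the median of the 9 genes was 1.29 on the log2 scale (2.45-fold) and in LysM-cKO R40D3 it was 1.02 (2.03-fold). Ifit3 (ENSMUSG00000074896, chr19:34583531-34588731, strand +), of the family that binds viral RNA caps and ends, was at 17.7 and 4.58 CPM in Wt R40D3. Its other values were 7.57 and 6.65 CPM in Wt R0D3, 9.54 and 4.61 CPM in LysM-cKO R0D3, and 12.0 and 6.04 CPM in LysM-cKO R40D3. Replicate 1 was thus above replicate 2 in all 4 groups, and the R40D3 and R0D3 values overlapped in both genotypes. Ifit1, Ifit2, Rsad2 (viperin, which makes a chain-terminating nucleotide) and Cmpk2, a mitochondrial nucleotide kinase, were likewise higher in replicate 1 than in replicate 2 in all 4 groups.

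Mx1 and Mx2 belong to a family of dynamin-like GTPases that block incoming virus, and the annotation used here lists Mx2 as a polymorphic pseudogene. Mx2 was the 1 member that did not overlap between genotypes at R40D3, at 2.51 and 1.71 CPM in Wt and 1.64 and 1.36 CPM in LysM-cKO. These values rest on 18 to 48 counts per library over the 8 libraries, and the difference did not pass the test (log2 -0.50, SE 0.34, adjusted p = 0.698). At R0D3 Mx2 overlapped, with 1.81 and 1.37 CPM for Wt beside 1.61 and 1.09 CPM for LysM-cKO. Isg20, an RNA exonuclease, was at 1.81 and 3.17 CPM in Wt R0D3, 2.20 and 1.16 CPM in Wt R40D3, 2.01 and 1.64 CPM in LysM-cKO R0D3, and 1.85 and 0.739 CPM in LysM-cKO R40D3. In Wt R0D3 its replicate 1 was the lower library (log2 difference -0.77, on 31 and 51 counts), opposite to Wt R40D3. Isg20 rests on 12 to 51 counts per library over the 8 libraries. Bst2 lay between 106 and 149 CPM over the 8 libraries, and in Wt R40D3 it was at 133 and 106 CPM.

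**Figure D5:**
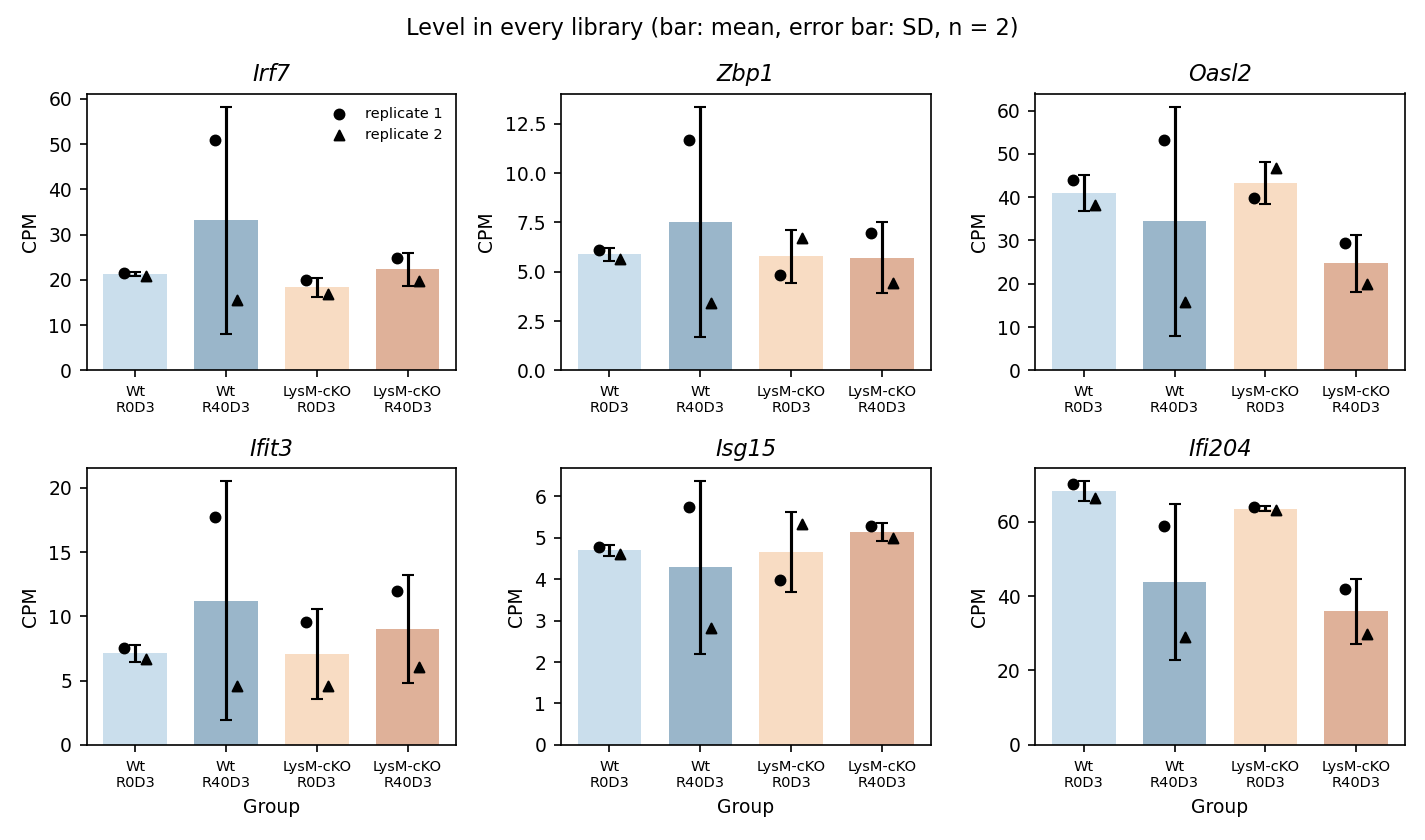
Level in CPM (y axis, from 0) of 6 members in the 4 groups (x axis), with circles for replicate 1, triangles for replicate 2, bars for the mean and error bars for the SD (n = 2). In Wt R40D3 the circle lies above the triangle for all 6 genes, and for all but Ifi204 the 2 points are the highest and the lowest of the 8 libraries.

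ISG15 is a ubiquitin-like protein that is attached to other proteins. Isg15 (ENSMUSG00000035692, chr4:156199424-156200818, strand -) was at 4.78 and 4.60 CPM in Wt R0D3, 5.75 and 2.81 CPM in Wt R40D3, 3.97 and 5.34 CPM in LysM-cKO R0D3, and 5.29 and 4.99 CPM in LysM-cKO R40D3. Replicate 2 of Wt R40D3 was the lowest library and replicate 1 the highest, so LysM-cKO minus Wt at R40D3 was -0.12 in replicate 1 and 0.80 in replicate 2. Herc6, the ligase that attaches ISG15 in mice, was at 19.4 and 16.0 CPM in Wt R0D3, 14.5 and 9.47 CPM in Wt R40D3, 20.8 and 19.0 CPM in LysM-cKO R0D3, and 17.7 and 12.0 CPM in LysM-cKO R40D3. Its R40D3 libraries were lower without overlap in either genotype, by -0.55 (SE 0.25, adjusted p = 0.188) and -0.42 (SE 0.24, adjusted p = 0.361). With the block, the change in Wt was called (-0.57, adjusted p = 0.0207).

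For Trim30a the range was 51.4 to 93.1 CPM and for Parp14 118 to 186 CPM. Both had their lowest value in Wt R40D3 replicate 2, as did all 6 genes of this role. Parp9 and Dtx3l, whose products form an ADP-ribose and ubiquitin ligase complex, were at 25.1 to 42.0 CPM and 45.1 to 67.9 CPM. They share exon bases on opposite strands, so their reads cannot be told apart where strand was not used.

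The guanylate-binding proteins are GTPases that attack the vacuoles of intracellular pathogens. Gbp2 was at 11.0 and 11.0 CPM in Wt R0D3, 17.7 and 6.17 CPM in Wt R40D3, 12.0 and 7.58 CPM in LysM-cKO R0D3, and 10.6 and 7.21 CPM in LysM-cKO R40D3. The Wt R0D3 replicates were equal to 3 digits, while those of Wt R40D3 were the highest and the lowest library. Gbp3 was higher in replicate 1 in all 4 groups, at 10.3 and 5.62 CPM in Wt R40D3.

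Of the remaining members, Ifi35 was at 16.3 and 18.1 CPM in Wt R0D3, 16.3 and 14.7 CPM in Wt R40D3, 16.9 and 21.1 CPM in LysM-cKO R0D3, and 14.0 and 15.3 CPM in LysM-cKO R40D3. It had the smallest difference between the Wt R40D3 replicates of all tested members (0.14 on the log2 scale), and its groups in LysM-cKO did not overlap (-0.38, SE 0.15, adjusted p = 0.172). Ifi44 had the largest such difference, 2.19, at 1.26 and 0.183 CPM, which rest on 24 and 3 counts. Its other libraries lay between 0.243 and 0.793 CPM. Rtp4, Xaf1 and Samd9l had 43.1 and 21.2 CPM, 14.5 and 8.18 CPM, and 51.3 and 26.7 CPM in Wt R40D3 replicates 1 and 2, with replicate 1 the highest library for all 3.

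Members with and without the response element in their promoter window had close medians of the difference between the Wt R40D3 replicates. The 14 tested members with a match had a median log2 difference of 0.93 (range 0.32 to 1.93) and the 14 tested members whose window holds none had 0.89 (range 0.14 to 2.19). In the windows printed above, Irf7, with no match, had 1.71 and Gbp2, with 1 match, 1.51. Ifit3 had 1.93 and Isg15 1.00.

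The result of the R40D3 contrast in Wt depended on which Wt R40D3 library was used. Without replicate 1, 9 members were called lower in R40D3, against 4.06% of all genes called lower and 7.56% higher (11.6% in all), and the median over the members was -0.70. They were Irf9, Parp9, Ifih1, Adar, Oasl2, Oas3, Rtp4, Samd9l and Ifi204, with log2 changes from -0.46 (Adar) to -1.41 (Oasl2). Without replicate 2, 1 member was called higher, Irf7 (1.22, SE 0.17, adjusted p = 0.0156), against 3.58% of all genes called higher and 1.13% lower (4.71% in all), and the median was 0.25. In these fits the lone R40D3 library was assumed to vary like the other groups. The median of the genotype contrast at R40D3 was 0.48 without Wt R40D3 replicate 1 and -0.55 without replicate 2, with 0 members called either way.

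Upstream of the members, none of the 11 interferon genes looked up was detected beyond 1 count in a library. Of these, Ifnb1, 5 interferon-alpha genes, Ifne, Ifng, Ifnl2 and Ifnl3 had 0 counts in all 8 libraries, and Ifnk had 1 count in 2 libraries. Other interferon genes were not looked up. A count of 0 allows up to 3 counts, or 0.156 to 0.187 CPM depending on the library, for counting error only. The receptor chains were present throughout, with Ifnar1 at 208 to 237 CPM and Ifnar2 at 123 to 160 CPM. Of 7 genes for receptors and their kinases, 0 passed the test in any comparison, and with the block Ifnar2 (-0.27, adjusted p = 0.0203) and the kinase gene Jak2 (-0.58, adjusted p = 0.00194) fell in Wt R40D3 while Ifngr2 (0.24, adjusted p = 0.0231) rose. In LysM-cKO the block called Jak2 lower (-0.44, adjusted p = 0.0102) and Ifngr2 higher (0.23, adjusted p = 0.0363). These are 3 and 2 of 7 genes, against 28.3% and 21.3% of all genes. The 7 genes differed between the Wt R40D3 replicates by a median of 0.07 on the log2 scale, with a range of 0.03 to 0.25.

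Among 14 sensors, adaptors and kinases that act before interferon is made, 3 fell in Wt R40D3 and 0 rose, against 5.52% of all genes lower and 11.4% higher. They were Irf5, a factor that drives inflammatory genes (-0.69, SE 0.09, adjusted p = 0.00311), Tlr4, the endotoxin receptor (-0.69, SE 0.17, adjusted p = 0.0337), and Tlr8, an RNA-sensing receptor (-0.80, SE 0.20, adjusted p = 0.031). Irf5 was at 169 and 177 CPM in Wt R0D3 and 112 and 102 CPM in Wt R40D3, and it fell in LysM-cKO as well (-0.60, SE 0.09, adjusted p = 0.00829), from 167 and 186 CPM to 115 and 116 CPM. Replicates of Irf5 were close in all 4 groups, unlike those of most members in Wt R40D3. Of the 14 genes, 12 (85.7%) were higher in replicate 1 of Wt R40D3, against 49.7% of all genes, by a median log2 difference of 0.34. In that group 4 of them (28.6%) passed 1.5-fold, against 7.44% of all genes. With the block, 5 of the 14 fell in either genotype, against 11.6% of all genes lower in Wt and 8.22% in LysM-cKO, and Tlr9 rose in Wt (0.56, adjusted p = 0.0203).

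A list of 65 further interferon-stimulated genes, of which 59 were tested, was also compared between replicates. For 1 of the 65, Samd9, no symbol was matched, and an identifier without a symbol (ENSMUSG00000118394) was counted in its place. The list's counts may therefore include 1 gene that is not known to be interferon-stimulated. In Wt R40D3, 58 of 59 were higher in replicate 1, with a median log2 difference of 0.60, and 31 (52.5%) passed 1.5-fold, against the 7.44% of all genes given above. In the other groups the list's median was 0.01 (Wt R0D3, 52.5% higher in replicate 1), 0.01 (LysM-cKO R0D3, 50.8%) and 0.16 (LysM-cKO R40D3, 72.9%), beside member medians of 0.13, 0.09 and 0.39. Of the 59, 2 rose and 2 fell in Wt and 1 rose and 1 fell in LysM-cKO, against 16.9% and 10.1% of all genes called in either direction. With the block, 6 rose and 7 fell in Wt and 4 rose and 3 fell in LysM-cKO, against 28.3% and 21.3%. Pml, the organiser of nuclear bodies, rose in both genotypes (0.63, SE 0.09, adjusted p = 0.00343 and 0.61, SE 0.09, adjusted p = 0.00662). Ly6e, a membrane protein that restricts viral entry, rose in Wt (1.65, SE 0.40, adjusted p = 0.0289), from 45.8 and 84.8 CPM to 249 and 161 CPM. Trim21 (-0.36, adjusted p = 0.0473) and Nampt (-0.34, adjusted p = 0.0297) fell in Wt, and Tor1aip1 (-0.35, adjusted p = 0.0374) fell in LysM-cKO. Of 14 tested genes of the interferon-gamma response, Irf8, a factor of monocyte development, fell in Wt (-0.67, SE 0.14, adjusted p = 0.0161), and 13 were higher in Wt R40D3 replicate 1 (median 0.49). In LysM-cKO the block alone called Irf8 lower (-0.47, adjusted p = 0.0111) and Gbp7 higher (0.73, adjusted p = 0.0132). None of 8 tested feedback inhibitors, among them the members Isg15 and Usp18, was called in any comparison. Between R40D3 and R0D3, 16.9% of all genes were called in Wt and 10.1% in LysM-cKO.

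Markers of some other cell types moved between the replicates too. For the 8 macrophage markers the median log2 difference was -0.06 in Wt R0D3, 0.16 in Wt R40D3, -0.12 in LysM-cKO R0D3 and 0.18 in LysM-cKO R40D3. In Wt R40D3 it was -0.13 for the 2 tested conventional dendritic cell markers and 0.48 for the 3 tested B cell markers. The 7 tested neutrophil markers were all higher in replicate 1 in all 4 groups, by a median log2 difference of 1.33 in Wt R0D3, 2.20 in Wt R40D3, 0.83 in LysM-cKO R0D3 and 0.87 in LysM-cKO R40D3, and the 8 listed summed to 485 and 113 CPM in the Wt R40D3 replicates and to 78.5 to 376 CPM elsewhere. Ly6g, the defining surface marker of neutrophils, had at most 0.157 CPM. In Wt R0D3 their sums were 376 and 148 CPM, where the member median was 0.13. Their part in the members' difference was not tested. The 10 osteoclast markers were all lower in replicate 1 of both R40D3 groups, by a median of -0.47 in Wt and -0.90 in LysM-cKO. They summed to 26292 and 38759 CPM in Wt R40D3 and to 13189 and 24833 CPM in LysM-cKO R40D3. The library with the lowest member sum had the highest osteoclast marker sum. The library with the highest member sum, Wt R40D3 replicate 1, had an osteoclast marker sum above both LysM-cKO R40D3 libraries. In the R0D3 libraries osteoclast marker sums were 325 to 471 CPM and member sums 1249 to 1294 CPM. The part of the osteoclast markers was not tested either. The 7 stromal fibroblast markers had medians of 0.18 in Wt R0D3, 0.07 in Wt R40D3 (range -0.24 to 1.42, with 2 past 1.5-fold), 1.64 in LysM-cKO R0D3 and 1.74 in LysM-cKO R40D3 (7 past 1.5-fold in either LysM-cKO group). Their part was likewise not tested. The 6 plasmacytoid dendritic cell markers, the member Bst2 among them, summed to 200 to 275 CPM per library. Of these, Siglech, which defines such cells, stayed at or below 0.816 CPM. The T and NK cell markers stayed at or below 0.183 CPM.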

How the data were processed

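Per the labels' protocols, TRIzol RNA went into an mRNA library kit. The authors deposited unnormalised counts of reads for each Ensembl gene, 1 table per replicate number, each with 4 culture libraries. Per the submitters' processing notes, FastQC 0.11.2, Trimmomatic 0.36, HISAT2 2.1.0, DESeq2 1.12.4 and build GRCm38 were used; the counting tool and the use of strand are not given in the sources used here. The forelimb libraries are not analysed here. 1 pathway gene is not reported here.

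Identifiers matched a symbol for 99.5% of 55401. Genes were kept by filterByExpr and all 8 culture libraries were fitted as 4 group means with edgeR 4.0.16 (glmQLFit with legacy = FALSE, TMM scaling), two-sided, with Benjamini-Hochberg adjustment over 14030 genes and calls at an adjusted p under 0.05. Standard errors were derived from the log2 change and its F statistic. RPKM uses the union of GENCODE M21 exons. The response element was searched on both strands as GAAANNGAAA, overlaps counted. Intervals and floors cover counting error only, since reads are not independent molecules. The fit was run on counts simulated with known changes in Wt R40D3. The simulation held no effect shared by same-numbered libraries, so the behaviour of the fit under such an effect was not tested.

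Whether replicate numbers pair the libraries was checked by correlating deviations from group means over genes: r was 0.343 to 0.609 over all 6 pairs of groups, so the blocked fit stands beside results whose calls it altered. Alternatives were RLE scaling, library size alone, DESeq2 1.42.0, legacy = TRUE, no filter, only the libraries compared, the block, and each library left out. Members and lists were chosen with earlier results of these data known. Named members were, in each of 7 roles, the one with the smallest p and the one with the largest genotype difference within a replicate number, plus the 3 with the highest RPKM; Ifit3, Ifi204, Ddx58, Ifih1 and others were described after their values were seen.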

Additional observations from a re-analysis of the deposited data

How the results depend on the processing

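With 2 libraries a group, each left-out fit holds 1 library in an arm, assumed to vary like the other groups. Ifi44, Isg20 and Mx2 rest on few counts (3 to 24, 12 to 51 and 18 to 48 a library). The count of called members stayed at 0 in every alternative run for both genotype contrasts and the interaction. In Wt R40D3 against R0D3 it was 3 with the replicate block and 0 to 9 when 1 library was left out. In LysM-cKO R40D3 against R0D3 it was 1 with DESeq2, 2 with the replicate block and 0 when 1 library was left out. The cause was not tested. For all genes, the 2370 calls in Wt became 3976 with the block and 689 to 1699 with 1 library left out, and the 1422 in LysM-cKO became 2983 with the block, 532 with only the libraries compared and 399 to 1317 with 1 library left out. LysM-cKO against Wt at R40D3 gave 2 calls, then 0 by library size alone, 23 with DESeq2, 30 with the block, 0 with only the libraries compared and 0 with 1 library left out. At R0D3 it gave 2, then 7 with DESeq2, 0 with only the libraries compared and 0 with 1 library left out. Over 2202 values of single members, 1933 kept direction and side of the threshold, 16 became called and 253 changed sign without a call. The member median ranged from -0.70 to 0.25 in Wt, from -0.34 to 0.01 in LysM-cKO, from -0.55 to 0.48 between genotypes at R40D3, from -0.07 to 0.04 at R0D3 and from -0.33 to 0.48 for the interaction when 1 library was left out. The longer form of the response element lowered the share of members with a match from 51.7% to 41.4%.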
